A study of Caenorhabditis elegans with 2 samples.

Results

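The mir-51 family of Caenorhabditis elegans consists of the 6 microRNA genes mir-51, mir-52, mir-53, mir-54, mir-55 and mir-56, which lie at 3 genomic sites. The genes were chosen by name from the 260 microRNA genes of the annotation. Every deposited entry whose summit lay inside a hairpin or within 2000 bp of it was then collected. The family had been picked because its peaks were known to be strong, so signal, rank and distance are descriptions of these data and carry no test.

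The entries came from chromatin immunoprecipitation with sequencing (ChIP-seq) of the zinc finger protein FLH-1 in whole embryos of mixed stage and mixed sex, collected by egg bleaching and carrying an age label of 2 hours. All chromatin came from 1 group, strain OP702, in 2 biological replicates. The strain is mutant for unc-119(tm4063) and carries the transgene wgIs702, in which flh-1 is fused to TY1, EGFP and 3xFLAG tags beside a rescuing copy, unc-119(+). Per the labels, sonicated fragments of 200 to 800 bp were precipitated through the GFP tag. No untagged strain or mock precipitation was analysed here, and all peaks describe the tagged protein in a whole-embryo mixture of cell types.

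A microRNA is cut from one arm of a hairpin transcript and guides an Argonaute protein to messenger RNAs that pair with its seed, the bases near its 5′ end. The mir-51 family is expressed widely in the worm from embryogenesis on. Loss of the whole family kills embryos or young larvae, with a pharynx that does not stay attached to the mouth, and single members can be lost with little effect. FLH-1 belongs to the FLYWCH zinc finger proteins, known in the worm embryo for the repression of other microRNA genes, among them lin-4.

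The mature sequences are shown because they define the family. They were read from RefSeq's annotation of WBcel235, the assembly that the files call ce11, and matched for 6 of 6 members. Each is printed 5′ to 3′ with the seed, bases 2 to 8, in capitals.
mir-51, IV:11026074-11026096, minus strand, 5′ arm: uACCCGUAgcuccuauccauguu
mir-53, IV:11027653-11027676, minus strand, 5′ arm: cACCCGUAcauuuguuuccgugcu
mir-52, IV:14034024-14034047, plus strand, 5′ arm: cACCCGUAcauauguuuccgugcu
mir-54, X:13145011-13145034, minus strand, 3′ arm: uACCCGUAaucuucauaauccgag
mir-55, X:13144842-13144864, minus strand, 3′ arm: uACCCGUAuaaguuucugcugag
mir-56, X:13144706-13144727, minus strand, 3′ arm: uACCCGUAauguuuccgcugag

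All 6 carried the same seed, ACCCGUA. It lay on the 5′ arm of the hairpin in the members on chromosome IV and on the 3′ arm in those on X. The members differed outside the seed. Over the 15 pairs, identity in a global alignment of the whole mature sequences, seed included, ran from 57.7% to 95.8%, with a median of 64.0%. The closest pair was mir-53 and mir-52, with 23 of 24 aligned bases the same, although these genes lie 3006316 bp apart. Their hairpins were 79.0% identical, against a median of 50.5% over all pairs. mir-55 and mir-56, neighbours on X, came next at 87.0% of mature bases. The 200 bp upstream of the hairpins held no such likeness, with identities of 47.3% to 54.8% and a median of 50.4%, and mir-53 with mir-52 stood at 54.8%. Upstream of mir-55 and mir-56 this stretch takes in the hairpin before them.

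**Figure D1:**
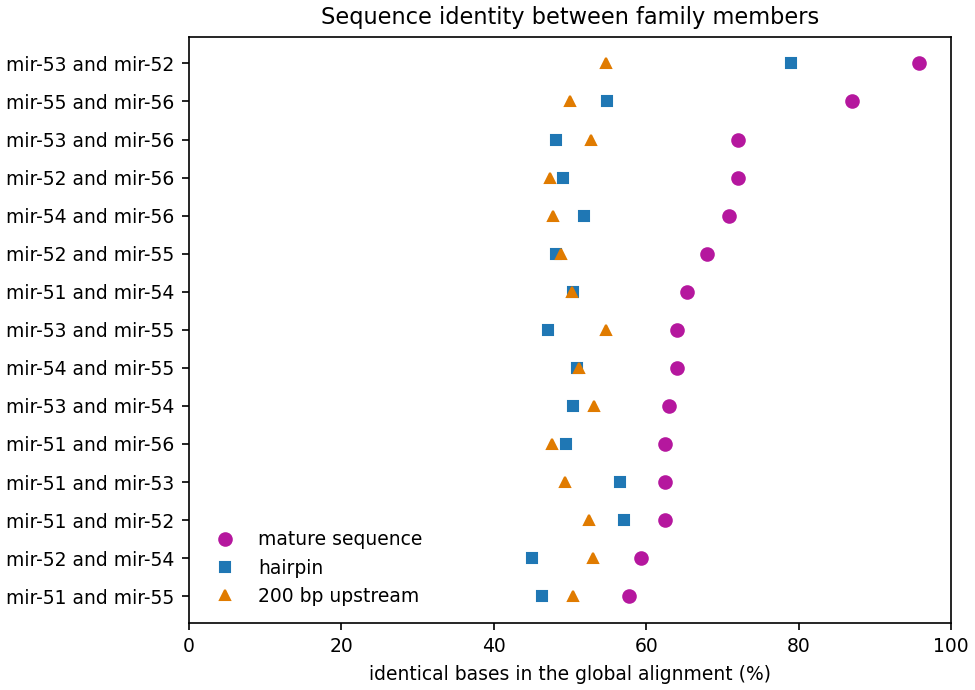
Identical bases (%, horizontal axis) for each of the 15 pairs of family members, in the mature sequence with the family seed, in the hairpin and in the 200 bp upstream of the hairpin. The pair mir-53 and mir-52 stands apart in mature sequence and hairpin (95.8% and 79.0%), and all upstream values lie between 47.3% and 54.8%.

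The DNA around the strongest pooled summit at each site is shown because the summits are the positions compared below. Each window reaches 50 bp to either side of the summit and is printed 5′ to 3′ on the strand of the microRNA, in ce11. For mir-51 and mir-54, capitals mark words of 6 bp that both windows hold on either strand. For mir-52, and for mir-53 in the matching position, capitals mark bases of the hairpin. The mir-53 window has no summit of the pooled list in it, and is printed because its hairpin is so like that of mir-52.
mir-51, IV:11026180-11026280, minus strand: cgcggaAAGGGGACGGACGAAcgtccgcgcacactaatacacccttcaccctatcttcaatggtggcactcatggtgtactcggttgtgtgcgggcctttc
mir-54, X:13145127-13145227, minus strand: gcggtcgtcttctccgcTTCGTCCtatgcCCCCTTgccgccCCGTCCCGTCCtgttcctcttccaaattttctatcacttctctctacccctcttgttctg
mir-52, IV:14033953-14034053, plus strand: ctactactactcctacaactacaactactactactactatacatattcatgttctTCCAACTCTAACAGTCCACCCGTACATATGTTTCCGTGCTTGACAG
mir-53, IV:11027646-11027746, minus strand: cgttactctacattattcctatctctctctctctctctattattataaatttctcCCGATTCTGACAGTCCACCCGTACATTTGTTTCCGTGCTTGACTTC

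The 3 summit windows differed in base composition, most of all mir-52 from the others. GC content was 57.4% at mir-51, 39.6% at mir-52 and 56.4% at mir-54, beside a mean of 51.1% over the 364 optimal peaks on nuclear chromosomes and 41.1% over all nuclear pooled entries. The mir-52 window was thus low for a peak of this protein, with 8.24% of optimal windows at or below it. It holds a run of repeated cta triplets just upstream of the hairpin. The mir-54 window was rich in pyrimidines, which made up 79.2% of its bases on the strand of the microRNA, and 99.7% of optimal windows had an equal or smaller skew toward one class of base. Pyrimidines made up 52.5% of bases at mir-51, 63.4% at mir-52 and 73.3% in the window at mir-53, whose upstream bases include a run of ct repeats. None of the windows touched an exon of a protein-coding gene.

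Words of 6 bp were compared on both strands. The mir-51 and mir-52 windows, which held the family's strongest peaks, shared 1 word, CGGAAA. The mir-51 and mir-54 windows shared 5, some of them overlapping, which are the capitals above. The mir-52 and mir-54 windows shared 4. All pairs of nuclear optimal peaks shared a median of 5 words and at most 79, so no pair of family sites was above the median. Of the words shared by mir-51 and mir-54, AAGGGG was held by 7.14% of optimal windows and 3.27% of all pooled windows. GGACGA was held by 4.40% and 2.81%, GACGAA by 4.40% and 4.64%, CCGTCC by 2.75% and 2.04%, and CGTCCC by 1.37% and 1.53%. CGGAAA, the word shared by mir-51 and mir-52, was rarer in optimal windows (6.59%) than in all pooled windows (9.96%). So was each of the 4 words shared by mir-52 and mir-54.

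Further words were searched by name on both strands. None of the 3 summit windows held GTTCGA, part of the internal promoter of tRNA genes, which 23.6% of optimal windows and 3.92% of all pooled windows held. None held GCGCGC, which was in 11.3% of optimal and 1.59% of pooled windows, or TTGCAA, which was in 9.07% and 4.59%. Also missing were TGCGTC, found in 5.49% of optimal and 3.44% of pooled windows, GGCGCC, found in 3.02% and 1.45%, and CAGCTG, found in 1.10% and 2.56%. GAGAGA was in the mir-54 window, as it was in 14.6% of optimal windows and 8.72% of all pooled windows. Absence of a word says only that these letters are not in the window.

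The deposited lists set the scale for what follows. The pooled list and the list of each replicate hold 30000 entries each, from strong peaks down to background. The optimal set, made by the irreproducible discovery rate (IDR) procedure from the ranks of entries in the replicates, holds 364 nuclear peaks and 7 mitochondrial ones. These were also the strongest entries of the pooled list. The signal value is the authors' own and was used only within a list, where rank 1 is the strongest. Its median was 32.1 in the pooled list, 24.0 in replicate 1 and 13.1 in replicate 2. The files hold no read counts, so depth is unknown and no interval can be given.

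mir-51 (F36H1.7, IV:11026013-11026112, minus strand) lies between genes, with mir-53 (F36H1.8, IV:11027593-11027691, minus strand) 1480 bp upstream of it. The strongest peak of the family stood just upstream of mir-51. Replicate 1 gave it a signal value of 227 (rank 16), replicate 2 gave 99.6 (rank 28) and the pooled list gave 329 (rank 18). Both replicates placed it among the strongest entries, and it was the strongest entry at any microRNA gene in both. Divided by the median of its list, the signal was 9.49 in replicate 1, 7.62 in replicate 2 and 10.3 when pooled.

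The summit lay upstream of the hairpin's 5′ end each time, by 113 bp in replicate 1, by 91 bp in replicate 2 and by 118 bp when pooled. The replicates' summits were 22 bp apart. Over 345 nuclear optimal peaks with an entry near them in both replicates the median distance was 31 bp, with quartiles of 12 and 56 bp. The pooled entry covered 290 bp, IV:11026054-11026343, and reached into the 5′ part of the mir-51 hairpin. It is one of 39 pooled entries narrower than the full width of 464 bp, all of them optimal. The summit of replicate 2 fell inside F36H1.17 (IV:11026131-11026219), a short non-coding RNA gene on the minus strand between mir-51 and mir-53. The pooled summit (IV:11026230) and that of replicate 1 (IV:11026225) lay just upstream of F36H1.17, nearer to it than to the mir-51 hairpin. Which of these genes the peak belongs to was not tested.

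Nothing else in the neighbourhood came near this peak. It was 8.59 times the next entry in the window in the pooled list, 6.27 times in replicate 1 and 4.35 times in replicate 2. Between 2000 and 20000 bp from the hairpins, 10 pooled entries were listed, and the highest had a signal of 49.6 at rank 3217, in an intron of mogs-1. The family peak was 6.63 times that entry, and it was 7.57 times the highest surrounding entry in replicate 1 and 4.37 times in replicate 2. The same entry is the only one in the promoter window, 1000 bp upstream to 200 bp downstream, of alh-3, an aldehyde dehydrogenase gene that ends 143 bp from mir-51. hrg-5, a gene of the heme-responsive family 598 bp beyond mir-53, had no pooled entry there.

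mir-53 had no peak of its own in the optimal set. It counts as having an optimal summit only through the mir-51 peak, 1461 bp downstream of its 5′ end. The nearest pooled summit lay 442 bp past its hairpin, with a signal of 38.3 at rank 8786. Each replicate listed a different weak entry upstream. In replicate 1 it was 506 bp upstream, with a signal of 27.8 at rank 9723. In replicate 2 it was 56 bp upstream, with a signal of 22.9 at rank 1905, or 1.75 times the median of that list. Neither was in the pooled list.

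mir-52 (Y37A1B.16, IV:14034008-14034107, plus strand) stands alone, far along the same chromosome. It overlaps Y37A1B.335, a non-coding RNA gene on the minus strand, and Y37A1B.330, a non-coding gene on the plus strand, ends 4 bp before the hairpin. Its peak was close to that of mir-51 in strength. Replicate 1 gave it a signal of 223 (rank 17), replicate 2 gave 94.0 (rank 33) and the pooled list gave 299.8 (rank 21). Relative to the median of the list this was 9.30, 7.19 and 9.35 in the same order.

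The mir-52 summit sat on the edge of the hairpin or inside it. It was 49 bp past the 5′ end in replicate 1, which is inside the hairpin and 33 bp past the first base of mature mir-52. It was 11 bp upstream of the hairpin in replicate 2 and 5 bp upstream in the pooled list, which is 21 bp before the mature sequence. In every list the summit also lay inside Y37A1B.335. In replicate 2 and in the pooled list it lay inside Y37A1B.330 as well. The replicates' summits were 60 bp apart, just beyond the upper quartile of 56 bp given above. The pooled entry, IV:14033876-14034211, covered the whole hairpin in its 336 bp.

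Unlike mir-51, mir-52 had other strong entries close by in the pooled list, each matched within 100 bp in only 1 replicate. A second optimal peak had its summit 194 bp past the 5′ end, with a pooled signal of 102 at rank 289. Its interval lay wholly inside that of the first and ended at the same base. Replicate 2 listed it 188 bp past the 5′ end at rank 356, whereas replicate 1 had no entry within 100 bp of it. Another pooled entry lay 1133 bp upstream, with a signal of 84.2 at rank 442, in another non-coding RNA gene. It was at rank 313 in replicate 1, and the nearest entry of replicate 2, 134 bp away, was at rank 4660. The strongest peak was 2.93 times the second entry in the pooled list, 3.25 times in replicate 1 and 2.69 times in replicate 2.

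Beyond that window the surroundings of mir-52 were empty. No entry of the pooled list or of replicate 1 lay between 2000 and 20000 bp from the hairpin, and replicate 2 had 5, the highest with a signal of 23.7 at rank 1596. The nearest pooled entries outside the window were 20104 bp to the left, with a signal of 104 at rank 278, and 25927 bp to the right, with a signal of 27.1 at rank 22409. Around the 254 microRNA genes outside the family the median was 11 pooled entries, and 1 of them (0.394%) had none. The 20000 bp to either side of the hairpin hold 163 annotated piRNA genes, which encode the short RNAs of the germline Piwi pathway, and the same stretches around the other two sites hold 0. Whether the piRNA genes bear on the lack of entries was not tested. The nearest protein-coding genes, irld-55 and Y37A1B.7, were 9380 bp and 8488 bp away and had no pooled entry in their promoter windows.

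mir-54 (F09A5.5, X:13144996-13145094), mir-55 (F09A5.6, X:13144827-13144924) and mir-56 (F09A5.8, X:13144691-13144787) form a tight cluster on the minus strand, with gaps of 71 and 39 bp. They lie in an intron of 9158 bp in F09A5.3, a protein-coding gene on the opposite strand. F09A5.15, annotated as a microRNA gene on the plus strand, overlaps mir-55. This cluster had no optimal peak. Its strongest pooled entry had its summit 83 bp upstream of mir-54, with a signal of 84.8 at rank 435, which is 64 places below the end of the optimal set. The weakest optimal peak had a signal of 90.3.

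The replicates ordered the cluster differently. At the summit next to mir-54 replicate 1 gave a signal of 55.1 at rank 594, 85 bp upstream. Replicate 2 gave 42.0 at rank 214, 142 bp upstream and inside the short non-coding gene F09A5.11. The summits were 57 bp apart. In replicate 1 that entry was not the highest of the window, because one 1790 bp past the 5′ end of mir-54 had a signal of 55.6 at rank 570. The entry nearest to that position in replicate 2 was at rank 19705. Relative to the list median the strongest entry of the cluster was 2.32 in replicate 1, 3.21 in replicate 2 and 2.65 when pooled.

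The signal of the cluster was spread over several entries of like height. The window held 5 pooled entries, with signals of 52.04 to 84.8. Their summits were at 285 and 83 bp upstream of mir-54 and at 628, 855 and 1787 bp past its 5′ end, and those at 628 bp and further were beyond mir-56. The strongest was 1.19 times the second in the pooled list, 1.01 times in replicate 1 and 1.60 times in replicate 2. Of the 5, the entries at 83 bp upstream and 628 bp downstream had a summit within 100 bp in both replicates, and the other 3 had one in replicate 1 alone. The 628 bp entry had a pooled signal of 57.3 and stood at rank 6470 in replicate 1 and rank 1023 in replicate 2.

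Around the cluster the pooled list was also fuller. Between 2000 and 20000 bp from the hairpins there were 18 entries, the highest with a signal of 57.3 at rank 1670, in an untranslated exon of mob-2, a gene of the Mob family of kinase activators. The cluster's strongest entry was 1.48 times that one. The same ratio to the highest surrounding entry was 1.09 in replicate 1, so nearly level, and 2.37 in replicate 2. The promoter window of F09A5.3 held an entry with a signal of 38.0 at rank 9004, and that of mob-2 one with 29.0 at rank 19365. ttr-34, a transthyretin-related gene 3805 bp away, had 33.0 at rank 13866 in its promoter window. The entry at the cluster was therefore above those at the promoters of its host and of both flanking protein-coding genes.

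**Figure D2:**
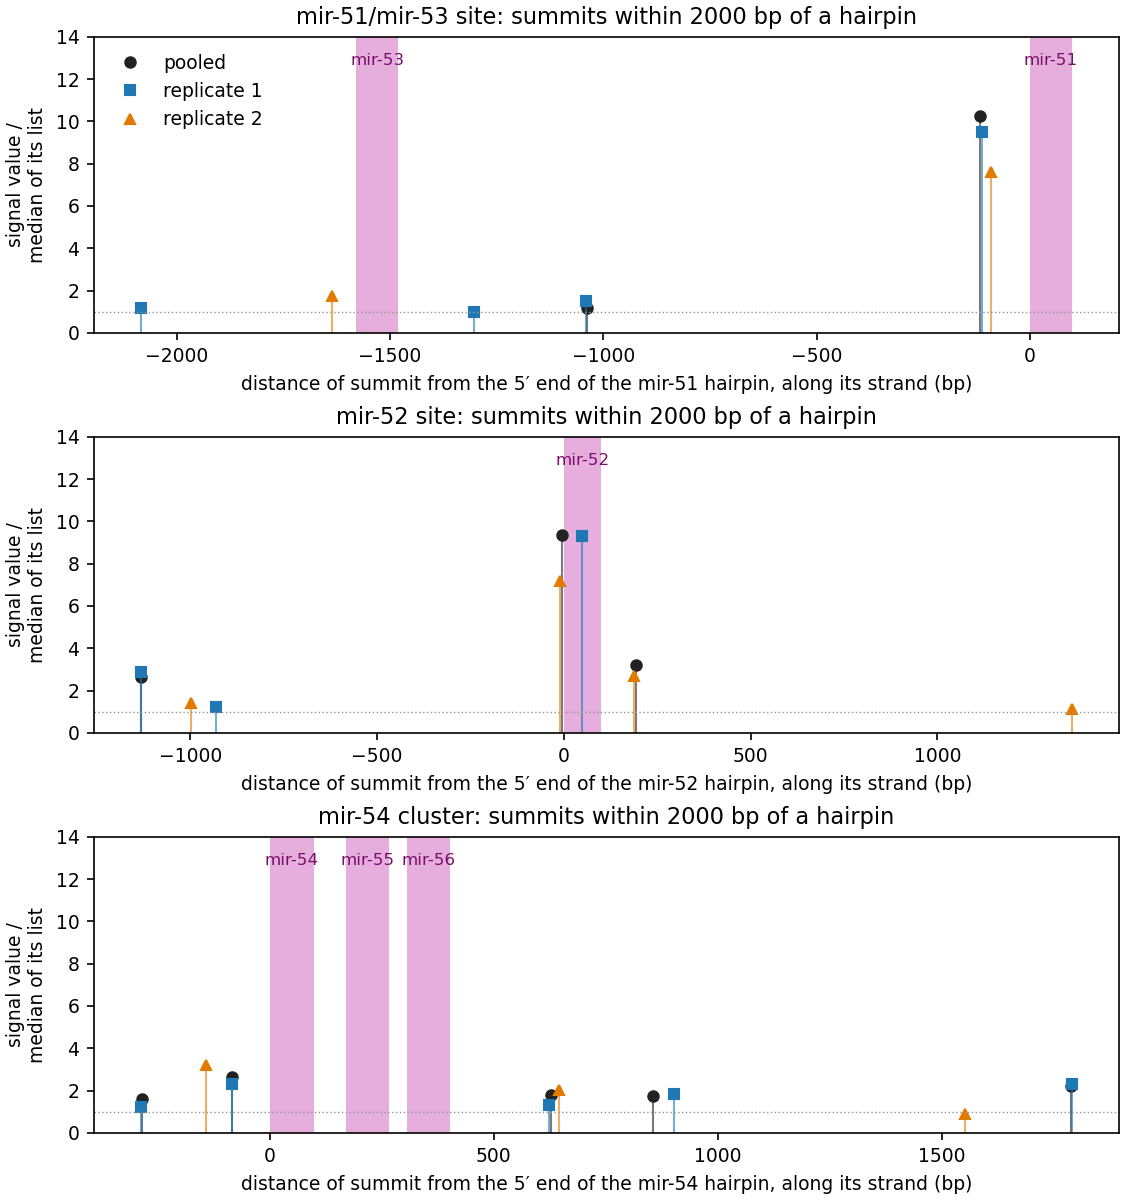
Summits of all entries within 2000 bp of a hairpin at the 3 sites, by distance from the 5′ end of the leading hairpin along its strand (bp, negative is upstream) and by signal value divided by the median of the list. Colours and shapes give the pooled list and the replicates, bands mark the hairpins and the dotted line is the list median. The mir-51 and mir-52 peaks reach 7.19 to 10.3 times the median in each list, and no entry at the mir-54 cluster exceeds 3.21.

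Set beside each other in the same list, the sites fell into a level pair, mir-51 and mir-52, and the lower mir-54 cluster. The mir-51 peak was 1.02 times the mir-52 peak in replicate 1, 1.06 times in replicate 2 and 1.10 times when pooled. It was 4.09, 2.37 and 3.88 times the strongest entry of the mir-54 cluster in the same lists. The mir-52 peak was 4.01, 2.24 and 3.53 times that of the cluster. The order of mir-51, mir-52 and the cluster was the same in both replicates. With 2 replicates, no spread was estimated for the small gap between mir-51 and mir-52, so it was not taken as a difference. The gap between these peaks and the cluster was narrower in replicate 2 than in replicate 1.

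**Figure D3:**
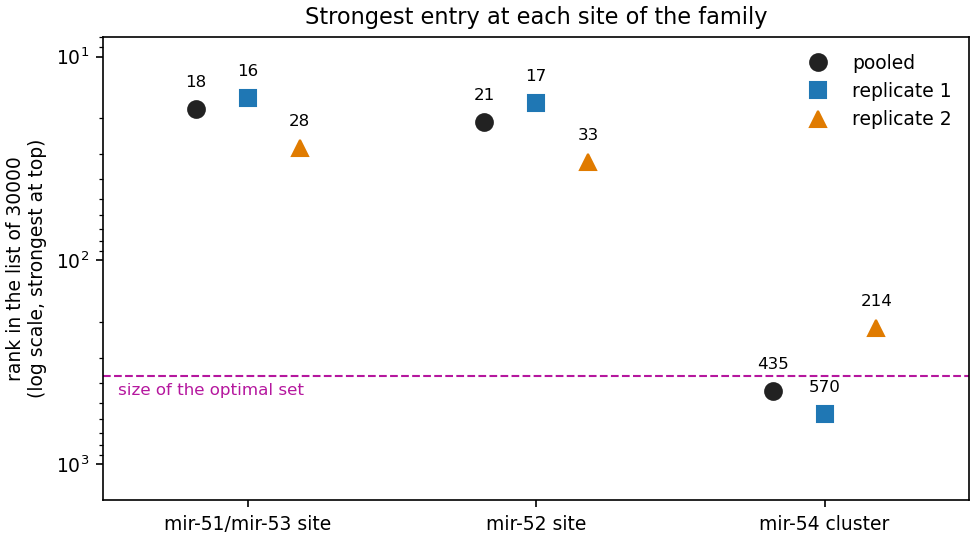
Rank of the strongest entry at each site in the pooled list and in each replicate (log scale, strongest at top), with the size of the optimal set as a dashed line. The mir-51/mir-53 site and the mir-52 site lie between rank 16 and rank 33 in every list. The mir-54 cluster lies between rank 214 and rank 570, on either side of the line. Its rank 570, in replicate 1, belongs to an entry 1790 bp past the 5′ end of mir-54. The ranks in the other lists belong to the entry next to mir-54, which stood at rank 594 in replicate 1.

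**Figure D4:**
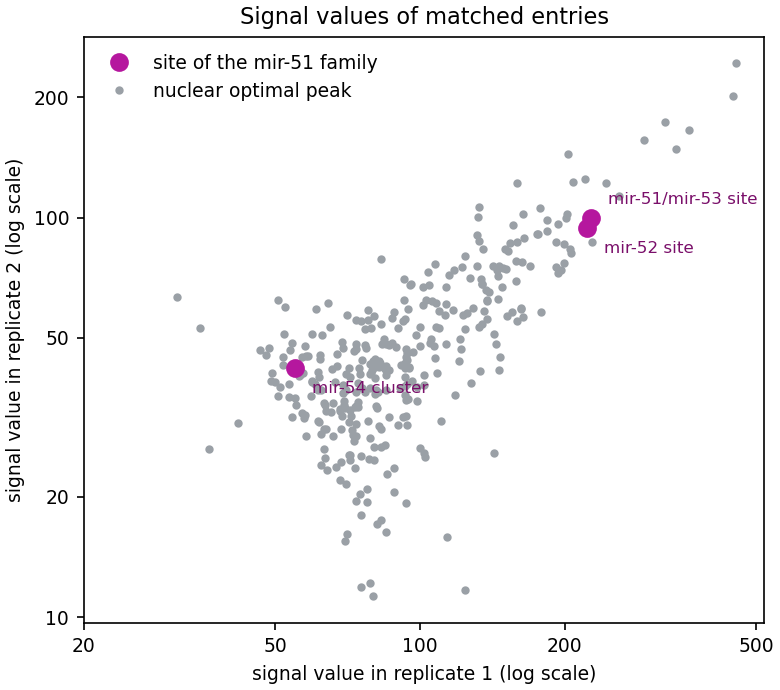
Signal value in replicate 1 (horizontal, log scale) against replicate 2 (vertical, log scale) for the entries matched to each nuclear optimal peak (grey) and to the family's sites (magenta, for the cluster the entry next to mir-54). The mir-51 and mir-52 points, at 227 and 99.6 and at 223 and 94.0, lie together near the upper end, and the cluster, at 55.1 and 42.0, lies among the weaker optimal peaks.

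Of the 10 pooled entries in the windows of the family, 4 had a summit within 100 bp in both replicates. They were the main peaks of mir-51 and mir-52 and, at the cluster, the entries at mir-54 and 628 bp past its 5′ end. The same share over all pooled entries was not counted, so whether 4 of 10 is high or low for this list is not known. The −log10 q value of 5 of the 10 stood at 1.57, the ceiling of the pooled list, which 535 entries share. That value could not rank the sites, because the peak at mir-51 and the entry 64 places below the optimal set had the same one.

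Many strong peaks of this protein lie at genes for tRNAs and small nucleolar RNAs, but those of the family do not. Among the 364 nuclear optimal peaks the mir-51 peak was number 12 and the mir-52 peak number 15 by signal. Among the 171 whose summit was more than 100 bp from any tRNA, snoRNA or snRNA gene, they were number 2 and number 4. The nearest such gene was 56917 bp away from the mir-51 peak, 20127 bp from the mir-52 peak and 23846 bp from the entry at mir-54.

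Within 2000 bp, 3 of the 6 members (mir-51, mir-53 and mir-52) had an optimal summit, resting on 2 sites, while the background over all 260 microRNA genes was 5.38%, or 14 genes. Over 19983 protein-coding genes it was 2.86%. All 6 members had some pooled entry in the window, but so did 74.6% of microRNA genes, so that count is near the background. When each replicate's list was cut to the length of the optimal set, an entry above the cut was found at 3 of 6 members in replicate 1, with a background of 6.92%, and at 6 of 6 in replicate 2, with 7.31%. These counts describe genes chosen for their peaks and share summits between neighbouring members.

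The strongest entries of the family's 3 sites had pooled signals of 329, 299.8 and 84.8, against a median of 39.95 at the 188 other microRNA genes that had an entry. The 254 other genes included 11 with an optimal summit. When each strongest entry was counted once, the microRNA genes gave 153 entries, in which the mir-51 peak was first, the mir-52 peak second and the mir-54 cluster in place 11. The gap after mir-52 was wide: the next was mir-237 with a signal of 152 at rank 130, its summit 1956 bp past the hairpin. Then came mir-1018, mir-4925, mir-4923.2, mir-4923.1 and mir-4921, which share an entry of 134 at rank 158.

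The other microRNA genes with an optimal summit were mir-2212 and mir-1819, which share rank 179, mir-90 at rank 244, mir-4936 at rank 281 and mir-59 at rank 355. Few of these peaks were as close to a hairpin as those of the family. Only 4 of the 14 genes had an optimal summit within 500 bp: mir-51 at 118 bp, mir-52 at 5 bp, mir-90 at 284 bp and mir-4936 with the summit inside its hairpin. The neighbours of the cluster in the order were mir-80 and mir-238, which share rank 405, and mir-71 at rank 432 above it, and mir-58.1 at rank 486 below it. The mir-58.1 summit lay 2 bp upstream of its hairpin, closer still than that of mir-52.

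**Figure D5:**
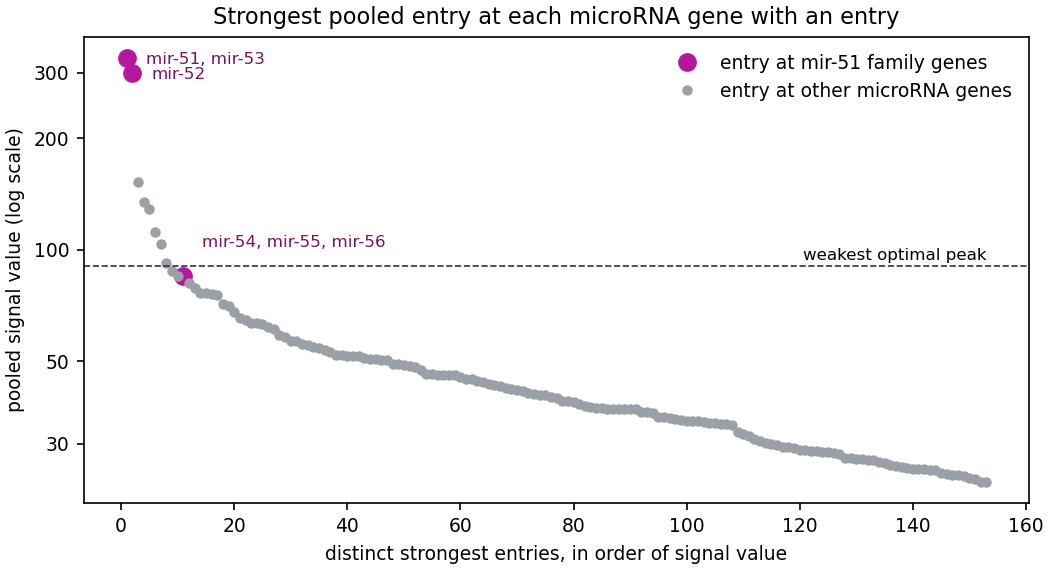
Pooled signal value (log scale) of the strongest entry at each microRNA gene, each entry counted once, in order of signal. Magenta points are entries at family genes and the dashed line is the weakest optimal peak, at 90.3. The mir-51 and mir-52 points, at 329 and 299.8, stand above the next entry at 152, and the cluster's point lies just under the line at 84.8.

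Among 17 other microRNA genes known for the embryo or for developmental timing, none had an optimal summit, which at this number is near the background of 5.38% over all microRNA genes. Their median pooled rank was 2384, beside 7597 at the microRNA genes outside the family that had an entry. The highest was mir-80, given above. mir-35 to mir-41, a cluster that embryos need, shared an entry of 52.97 at rank 2384. lin-4, the timing microRNA gene that FLH-1 is known to repress in embryos, had its strongest entry at rank 1215 with a signal of 61.7. The replicates differed at lin-4, with rank 655 in replicate 1 and rank 10341 in replicate 2. let-7 had its strongest pooled entry at rank 17013. mir-48 and mir-241, of the let-7 family, were at rank 26748 and rank 9760. In the pooled list all 17 stood below every site of the mir-51 family except mir-80, which stood above the mir-54 cluster.

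The genes that make and use microRNAs were spread over the list. Of 10 looked up, 1 had an optimal summit, beside a background of 2.86% over protein-coding genes. It was ain-1, a GW182-like partner of the microRNA Argonautes, with a signal of 96.0 at rank 322. The Argonaute gene alg-2 was next, at rank 481 with 81.6, and nhl-2, a cofactor of microRNA complexes, was at rank 889. The replicates differed at alg-2, with rank 302 in replicate 1 and rank 5342 in replicate 2. drsh-1, the nuclear hairpin-cutting enzyme, and dcr-1, the Dicer gene, were at rank 15730 and rank 10381. The median over the 10 was rank 4516, with no median over all protein-coding genes to set beside it. Each rank is that of the strongest entry inside the gene or within 2000 bp of it. cdh-3, a cadherin gene reported as a target of the family in pharynx attachment, had its strongest entry at rank 9529 with a signal of 37.3.

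Of the 4 FLYWCH genes, flh-1 and flh-3 had no pooled entry, flh-2 was at rank 11314, and peb-1, which encodes a pharyngeal DNA-binding protein, was at rank 576 with a signal of 76.0. None of the 4 had an optimal summit, which at this number is near the background of 2.86% over protein-coding genes. The share of protein-coding genes with any pooled entry was not counted, so the lack of one at flh-1 and flh-3 is only described.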

How the data were processed

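FLH-1 ChIP-seq peak lists of 2 biological replicates in 1 group were used. Per the deposited description files, the authors called the relaxed lists on ce11 alignments against a control and derived the optimal set by IDR. The deposited signal value (column 7) is the authors' peak caller's and ranked entries within a list. The deposited −log10 q values were read but not used for ranking. Aligner, peak caller and the threshold for IDR: not given in the sources used here. These lists hold no counts, so depth and its precision are unknown.

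Summits were taken as start plus summit offset and counted from 1. Gene positions, names and sequences came from RefSeq's WBcel235, and 0 of 90371 entries lay beyond its chromosome ends. Windows reached 2000 bp from each gene, local surroundings from there to 20000 bp, and words of 6 bp were counted within 50 bp of summits. Replicate entries were matched within 100 bp. Identities came from global alignments. Reading and counting were tested on simulated entries. No test was run, since 1 group has no contrast and the members were chosen on the readout. The members and lists were chosen with earlier results of these data known. The named genes were the members, those overlapping or flanking each site, other microRNA genes with an optimal summit or next in rank, and lists of microRNA pathway, embryonic and timing, and FLYWCH genes with cdh-3. Base composition, the mir-53 window and upstream identity were added after the values had been seen, as was naming mogs-1. Alternatives were other windows, interval overlap, the optimal peaks above the median signal and each replicate alone. Python 3.11.15, numpy 2.4.6, pandas 2.3.3, Biopython 1.88 and matplotlib 3.10.9 were used.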

Additional observations from a re-analysis of the deposited data

How the results depend on the processing

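The number of members with an optimal summit was 2 with windows of 500 or 1000 bp, where mir-53 drops out, and 3 under the other settings. The number among all microRNA genes was 4 at 500 bp and 6 at 1000 bp, against 14 at 2000 bp. With each replicate left out in turn, the members with an entry among the strongest, as many as the optimal set holds, ranged from 3 to 6. The rank of the strongest entry ranged from 16 to 28 at the mir-51/mir-53 site, from 17 to 33 at the mir-52 site and from 214 to 570 at the mir-54 cluster. The summit's distance from the hairpin's 5′ end, negative upstream, ranged from −113 to −91 bp, from −11 to 49 bp and from −142 to 1790 bp at these sites. Counting words within 25 and 100 bp of the summit gave 0 and 11 words shared by mir-51 and mir-52, 0 and 19 by mir-51 and mir-54, and 3 and 15 by mir-52 and mir-54, since wider windows hold more words. No paired analysis was possible because there is 1 group. With no read counts, limits set by depth could not be given. With 2 replicates, the small gap between mir-51 and mir-52 could not be judged.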
